A study of Mus musculus with 10 samples.

Results

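Mitochondria make few of their own proteins, and the transcripts described here encode the machinery that brings the rest in and the carriers that move small molecules across the inner membrane. They were taken from RNA sequencing of the developing mouse neocortex as every gene whose name begins with Timm, Tomm or Slc25. These were 31 of 6147 genes in the deposited table, 16 import genes (Timm and Tomm) and 15 carrier genes (Slc25). Names of both families fixed as lists ran to 27 for import and 47 for carriers, so the table holds only part of each. Tomm7, Timm17a, Timm17b, Timm22 and most carriers are among those not analysed here. All tissue came from CD1 wild-type mice, an outbred strain, with no treatment or allele named. The groups were neocortex at embryonic stages E12.5 (by day of gestation), E14, E15.5, E17 and the day of birth (P0), with 2 libraries each and 10 in all, described by the submitters as biological duplicates. Nothing in the labels says which litter or animals a library came from. P values therefore weigh stage differences against the spread between these libraries, pooled over all stages.

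Precursor proteins enter mitochondria through the TOM complex of the outer membrane, where receptors pass them to a channel. Those with an N-terminal targeting sequence then go through TIM23 and are pulled into the matrix by a motor, whereas the carriers themselves are escorted between the membranes by small Tim chaperones and inserted by TIM22. The Slc25 proteins exchange ADP for ATP, import phosphate and move amino acids, carboxylates and cofactors. In brain, exchange of aspartate for glutamate is part of the malate-aspartate shuttle, which carries reducing equivalents into mitochondria.

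Levels are given as TPM, a length-corrected share of all transcripts in a library on a fixed total. Changes are differences between stage means of log2(TPM + 1), with the standard error (SE) from limma, and a gene was called when its p value, adjusted by Benjamini-Hochberg over the 6048 genes whose mean reached 1 TPM, was below 0.05. Log2 ratios of paralogues are differences of their log2(TPM + 1) within a library. The log2(TPM + 1) scale understates changes and ratios of genes with low values. Gene positions are those of GENCODE M21 on GRCm38. Of the 31 genes, 30 passed this minimum, 15 in each class. The exception was Tomm6, a small TOM subunit, whose values ran from 0 to 0.55 TPM. Tomm6 overlaps the protein-coding model Gm21981 by 1648 bases on the same strand, so its level is uncertain, and it was left out of all tests.

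Genes in the table made up 68.9% to 71.7% of a library's TPM total, and 5990 to 6036 of them reached 1 TPM per library; read depth was not analysed here. The 2 libraries of E17 lay farther apart than those of other stages: the members' median absolute log2 difference was 0.148 at E17 and 0.042 to 0.094 elsewhere. All 10 of the listed genes of neuronal maturation (such as Snap25 and Syn1) were called higher at P0 than at E12.5, and their summed level ran from 476–479 TPM at E12.5 to 3069–3101 at P0. All 9 proliferation genes in the table (such as Top2a and Pcna) were called lower, from 1282–1336 to 153.2–153.3 TPM. Of the radial glial genes 4 of 6 tested were called lower and 2 higher, and of the astrocyte genes 3 of 4 higher and 1 lower. Neocortical identity genes were present at every stage, with 6 of 10 in the table and sums of 1002–1007 TPM at the first stage and 1010–1061 TPM at the last. The erythroid, meningeal and choroid plexus genes in the table were high at E12.5 and E14 and close to 0 from E15.5. The 3 erythroid genes in the table, of 13 listed, summed to 4323–4494 TPM at E12.5 and 9.26–9.84 TPM at E15.5. Nearly all of the E12.5 sum was the globin gene Hbb-y (4268 and 4429 TPM). Other listed globin genes, such as Hba-a1 and Hbb-bs, were not in the table, so this fall does not give the erythroid share of later libraries. The 5 meningeal genes went from 173 to 2.80–3.03 TPM between the same stages, and the 2 choroid plexus genes, of 5 listed, from 303–452 at E12.5 and 1405–1517 at E14 to 3.46–4.25 TPM. None of the 6 vascular markers, and 1 of 7 microglial markers, were in the table. In bulk tissue, a change in the share of a cell type and a change of RNA per cell cannot be told apart, and the part of these shifts in the results below was not tested.

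Between E12.5 and P0, 12 of the 30 genes rose and 8 fell, while 10 did not pass the test. Over all 6048 genes, 78.2% were called in this comparison, 27.1% higher and 51% lower. Import genes had 5 rises and 3 falls and carriers 7 rises and 5 falls. The median change was -0.08 for import genes, 0.13 for carriers and -0.27 for all genes. The largest rise was that of the glutamate carrier gene Slc25a22 and the largest fall that of the aspartate-glutamate carrier gene Slc25a13. With median-of-ratios scaling, which moved the median of all genes to -0.01, 17 of the 30 genes were called higher and 6 lower. Of all 6048 genes, 2293 were called higher and 2282 lower under that scaling. Without either E17 library, 5 import genes were called lower in place of 3, and the other counts of rises and falls stayed at 5 and 7 higher and 5 lower.

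**Figure D1:**
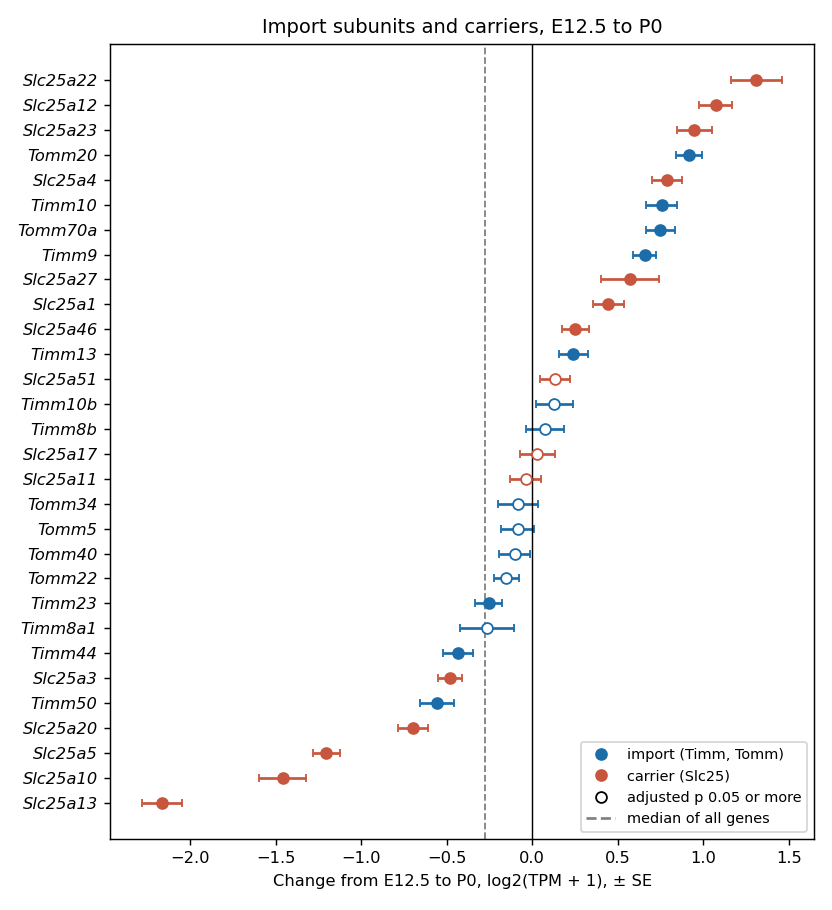
Change from E12.5 to P0 for the 30 tested genes on the log2(TPM + 1) scale, with bars of ± SE; blue points are import genes, red points carriers, and open points did not pass the test. Changes run from -2.16 for Slc25a13 to 1.31 for Slc25a22, and both classes lie on either side of the dashed median of all genes at -0.27.

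At the entry gate, the receptors Tomm20 and Tomm70a rose, and the channel gene did not pass the test. Tomm20 (chr8:126930667-126945844, minus strand) encodes a receptor for targeting sequences and was the most abundant import gene. Its level was 404 and 375 TPM at E12.5, 402 and 382 at E14, 528 and 517 at E15.5, 604 and 616 at E17 and 706 and 766 at P0. The libraries of E12.5 and E14 overlapped one another, and every library from E15.5 on lay above them, with both P0 libraries highest. P0 was 1.89 times E12.5 on the TPM scale, a log2 change of 0.92 ± 0.08 (SE, adjusted p = 5.52e-07). Tomm70a (chr16:57121703-57156705, plus strand) encodes the receptor that takes up carrier precursors delivered by chaperones. It was at 109 and 107 TPM at E12.5, 97.9 and 97.6 at E14, 117 and 119.9 at E15.5, 116 and 129.5 at E17 and 169.7 and 195 at P0. Both P0 libraries stood above all 8 others, which lay between 97.6 and 129.5 TPM. The change was 0.75 ± 0.09, 1.69-fold (adjusted p = 7.15e-06).

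The other 3 tested TOM genes did not pass the test. Tomm40, the channel, ranged from 54.1 to 75.6 TPM, and its change from E12.5 to P0 was -0.10 ± 0.09 (adjusted p = 0.321). After correction for length and GC content it was called lower, at -0.47 (adjusted p = 4.55e-05). Tomm5, a small subunit, ranged from 56.4 to 78.0 TPM with a change of -0.09 ± 0.10 (adjusted p = 0.426). Both were lowest at E15.5, and this dip is described with the single steps. Tomm22, the central receptor, ranged from 199 to 269.7 TPM with a change of -0.15 ± 0.07 (adjusted p = 0.0857). Without either E17 library, Tomm22 was called lower, with an adjusted p of 0.0244 or 0.0246. Median-of-ratios scaling turned all 3 directions, to 0.17, 0.19 and 0.13. Tomm34, a cytosolic co-chaperone of precursors, ranged from 24.6 to 30.6 TPM with a change of -0.08 ± 0.12 (adjusted p = 0.531), which also turned under that scaling, to 0.18.

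Among the small Tim chaperones, the 2 partners of the Tim9-Tim10 ring, which shields carrier precursors between the membranes, both rose. Timm9 (chr12:71123173-71136684, minus strand) was at 85.2 and 84.4 TPM at E12.5, 84.1 and 84.1 at E14, 93.3 and 91.8 at E15.5, 101 and 105 at E17 and 133 and 136 at P0. Timm10 (chr2:84826997-84830213, plus strand) was at 65.0 and 76.3 TPM at E12.5, 71.7 and 76.2 at E14, 87.1 and 90.6 at E15.5, 85.7 and 92.1 at E17 and 122 and 117 at P0. In both genes the P0 libraries were above every earlier one. Timm9 changed by 0.66 ± 0.07 (adjusted p = 3.15e-06) and Timm10 by 0.76 ± 0.09 (adjusted p = 9.77e-06), 1.58-fold and 1.69-fold. Timm13, the partner of Timm8 in a second ring, ranged from 249 to 336 TPM and was called higher by 0.24 ± 0.09 (adjusted p = 0.0223). That call was lost without either E12.5 library (adjusted p 0.0733 and 0.0955), without P0 replicate 1 (0.168) and after correction for length and GC content (0.903), and its change was 0.52 under median-of-ratios scaling. Timm10b, a small Tim of the TIM22 complex, ranged from 10.8 to 14.1 TPM and did not pass the test (change 0.13 ± 0.11, adjusted p = 0.292), but it was called higher under quantile normalization (0.57, adjusted p = 0.000735), median-of-ratios scaling (0.38, 0.00667) and length and GC correction (0.26, 0.0228). It overlaps the protein-coding model Gm45799 on the same strand by 3086 bases, so its level is uncertain.

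The 3 tested Timm genes of TIM23 and its motor were called lower, beside 51% of all genes. Only the fall of Timm50 was called under every alternative. Genes that work with the import machinery but lack a Timm or Tomm name went both ways, as given below. Timm50 (chr7:28305516-28312072, minus strand), which receives precursors on the inner side of the gate, was at 79.8 and 82.3 TPM at E12.5, 72.3 and 70.3 at E14, 57.8 and 57.0 at E15.5, 55.8 and 54.7 at E17 and 61.3 and 49.0 at P0. Timm23 (chr14:32180162-32201898, minus strand), the channel gene, was at 82.7 and 84.4 TPM at E12.5, 80.8 and 79.9 at E14, 63.2 and 70.5 at E15.5, 57.6 and 58.8 at E17 and 71.6 and 68.1 at P0. Timm44 (chr8:4259731-4275913, minus strand), which tethers the motor to the channel, was at 38.3 and 38.1 TPM at E12.5, 35.3 and 35.7 at E14, 28.4 and 27.5 at E15.5, 30.1 and 27.0 at E17 and 28.0 and 28.1 at P0. In each gene all 4 libraries of E12.5 and E14 lay above all 6 later ones. The changes to P0 were -0.56 ± 0.10 for Timm50 (adjusted p = 0.000281), -0.43 ± 0.09 for Timm44 (adjusted p = 0.000806) and -0.26 ± 0.08 for Timm23 (adjusted p = 0.0112). The change of Timm50 was -0.28 under median-of-ratios scaling (adjusted p = 0.0249). Timm44 kept its sign but not its call under median-of-ratios scaling (-0.16, adjusted p = 0.0614) and under quantile normalization (-0.17, adjusted p = 0.0588). Timm23 lost its call without E12.5 replicate 2 (adjusted p = 0.068), under quantile normalization (-0.13, adjusted p = 0.21) and after length and GC correction (-0.14, adjusted p = 0.152). Under median-of-ratios scaling its change was 0.02 (adjusted p = 0.864).

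**Figure D2:**
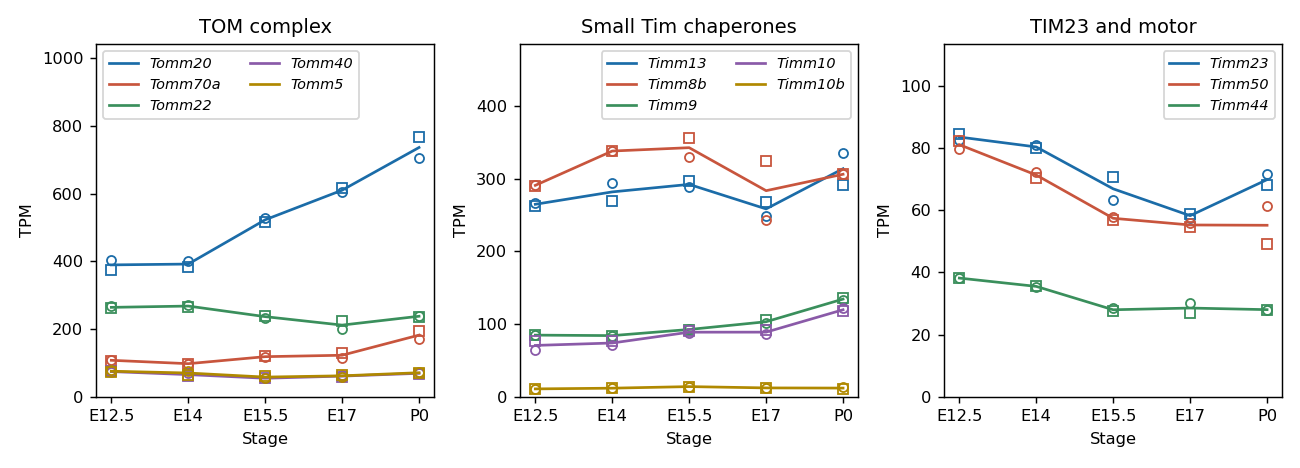
TPM of import genes by stage for the TOM complex, small Tim chaperones and TIM23 with its motor; circles are replicate 1, squares replicate 2 and lines join stage means. Tomm20 climbs to 706 and 766 TPM at P0, Timm9 and Timm10 end above 117 TPM, and Timm50 and Timm44 end below their E12.5 libraries.

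The ADP/ATP carriers, the most abundant carrier genes, moved in opposite directions. Slc25a4 (chr8:46206797-46211284, minus strand) encodes the form that predominates in heart, muscle and mature brain, and Slc25a5 (chrX:36795651-36798807, plus strand) the form typical of dividing cells. Sequence before the RefSeq start of both, and of the aspartate-glutamate carrier pair described next, is shown because the members of each pair moved apart. Each line gives the 250 bases before the RefSeq transcript start on GRCm38.p6, 5′ to 3′ on the gene's strand, with motif matches in capitals. In GENCODE, Slc25a4 begins farther upstream, at chr8:46211284. Most of its window, with all matches in capitals, therefore lies inside the GENCODE gene and is not upstream of that start.
Slc25a4, chr8:46211063-46211312, minus strand: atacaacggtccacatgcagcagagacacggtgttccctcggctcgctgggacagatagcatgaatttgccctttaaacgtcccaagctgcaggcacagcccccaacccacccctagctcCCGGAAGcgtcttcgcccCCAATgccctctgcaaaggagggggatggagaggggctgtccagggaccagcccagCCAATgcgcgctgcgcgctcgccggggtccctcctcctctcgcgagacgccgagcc
Slc25a5, chrX:36795347-36795596, plus strand: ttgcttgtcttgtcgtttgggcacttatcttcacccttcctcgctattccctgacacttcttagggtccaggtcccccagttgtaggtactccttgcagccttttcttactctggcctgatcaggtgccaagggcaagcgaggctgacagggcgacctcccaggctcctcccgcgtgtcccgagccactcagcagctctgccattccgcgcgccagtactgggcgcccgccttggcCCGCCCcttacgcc
Slc25a12, chr2:71367756-71368005, minus strand: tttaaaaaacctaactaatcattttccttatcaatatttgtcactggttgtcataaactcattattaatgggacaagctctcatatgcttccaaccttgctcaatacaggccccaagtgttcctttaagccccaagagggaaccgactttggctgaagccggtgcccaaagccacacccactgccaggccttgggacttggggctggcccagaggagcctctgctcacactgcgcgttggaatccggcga
Slc25a13, chr6:6217174-6217423, minus strand: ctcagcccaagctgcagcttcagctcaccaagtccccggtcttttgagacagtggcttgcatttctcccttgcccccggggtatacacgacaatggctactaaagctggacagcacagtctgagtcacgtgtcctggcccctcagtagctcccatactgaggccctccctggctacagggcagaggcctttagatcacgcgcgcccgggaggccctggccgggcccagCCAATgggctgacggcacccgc

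For 7 motifs, matches were searched on both strands in windows of 300 bases, from 250 before to 50 after the start, for the 28 members with a RefSeq promoter (32 promoters). Slc25a4 held the ETS motif CCGGAAG, 2 CCAAT boxes and, 29 bases after the start, the Sp1 GC box GGGCGG. Slc25a5 held 1 GC box (as CCGCCC) and Slc25a13 1 CCAAT box, and none of the searched letters occurred in the window of Slc25a12. No matches overlapped in these 4 windows. CCGGAAG was present in 37.5% of member promoters, 18.9% of the promoters of genes in the table and 8.86% of all 32851 promoters. GGGCGG was in 71.9%, 66% and 35.7%, and CCAAT in 40.6%, 37% and 37.4%. The nuclear respiratory factor 1 motif was in 9.38% of member promoters (Tomm20, Timm8b and Slc25a3), 11.6% of table promoters and 4.6% of all. The YY1 motif was found in 1 member (Timm50), 1.89% of table promoters and 0.633% of all, and the estrogen-related receptor motif TCAAGGTCA in 1 (Timm8b), 0.16% and 0.423%. The TATA box TATAAA was in 6.25% of member promoters (Timm13 and Tomm5), 6.34% of table promoters and 13.6% of all. A match describes the letters of the window, not binding.

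Slc25a4 was at 446 and 432 TPM at E12.5, 489.6 and 459 at E14, 572 and 577 at E15.5, 543 and 639.6 at E17 and 751 and 768 at P0. Slc25a5 was at 521 and 554 TPM at E12.5, 495 and 484 at E14, 325 and 316 at E15.5, 219 and 244 at E17 and 242 and 224 at P0. At E12.5 both libraries had more Slc25a5 than Slc25a4, at E14 the 4 values lay within 459 to 495.5 TPM, and from E15.5 Slc25a4 exceeded Slc25a5 in every library. Slc25a4 rose by 0.79 ± 0.09, 1.73-fold (adjusted p = 5.75e-06), and Slc25a5 fell, by a change of -1.20 ± 0.08 (adjusted p = 6.44e-08), so that E12.5 was 2.31 times P0. The log2 ratio of Slc25a4 to Slc25a5 within a library went from -0.29 ± 0.09 (SD, n = 2) at E12.5 to -0.05 ± 0.04, 0.84 ± 0.04, 1.35 ± 0.06 and 1.70 ± 0.10 at the later stages. Its stages differed in an exact permutation test of F (upper tail) over libraries (p = 0.00106, the smallest possible, adjusted p = 0.00159 over 3 gene pairs). As a share of both transcripts, Slc25a4 made up 45.0% at E12.5 and 76.5% at P0. The sum of both, added after the data were seen and given without a test, amounted to 977 ± 13.9 TPM at E12.5 (SD, n = 2), 823 ± 85.7 at E17 and 993 ± 0.37 at P0. Slc25a5 has an annotated processed pseudogene, Slc25a5-ps, so its level is uncertain where reads match both. Proliferation genes fell and neuronal maturation genes rose over the same stages (sums given above), and their part in the exchange was not tested.

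The aspartate-glutamate carriers moved apart further. Slc25a12 (chr2:71271063-71367749, minus strand) encodes aralar, the form found in neurons and muscle, and Slc25a13 (chr6:6041218-6217173, minus strand) encodes citrin, known from liver. Slc25a12 was at 26.6 and 27.0 TPM at E12.5, 29.0 and 27.4 at E14, 35.9 and 37.5 at E15.5, 47.3 and 39.6 at E17 and 57.8 and 57.2 at P0. Slc25a13 was at 8.93 and 9.53 TPM at E12.5, 7.83 and 6.89 at E14, 3.53 and 3.79 at E15.5, 2.66 and 2.31 at E17 and 1.17 and 1.40 at P0. For Slc25a12 every library from E15.5 on exceeded all 4 earlier ones, and for Slc25a13 the stages fell in order without overlap. Slc25a12 rose 2.14-fold (1.07 ± 0.10, adjusted p = 1.03e-06). For Slc25a13 the mean at E12.5 was 7.17 times that at P0, and the change of -2.16 ± 0.12 (adjusted p = 1.1e-08) understates this because of its low level. With a pseudocount of 10 TPM it was -0.77. The log2 ratio within a library went from 1.44 ± 0.05 (SD, n = 2) at E12.5 to 4.68 ± 0.11 at P0, with 3.02 ± 0.01 at E15.5 (exact permutation p = 0.00106, adjusted p = 0.00159). Slc25a12 made up 74.4% of the pair's TPM at E12.5 and 97.8% at P0, shares taken without the added 1 TPM that lowers the ratio.

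The third pair that could be tested was Timm8a1 and Timm8b, small Tim chaperones related to the human deafness-dystonia protein. Timm8a1 was at 28.3 and 26.0 TPM at E12.5, 23.4 and 26.0 at E14, 16.7 and 18.1 at E15.5, 13.9 and 21.1 at E17 and 22.0 and 22.8 at P0. Timm8b was at 291 and 290.3 TPM at E12.5, 338 and 338 at E14, 329 and 356 at E15.5, 243 and 324 at E17 and 306 and 306 at P0. Timm8a1 had its highest stage mean at E12.5 and its lowest value in E17 replicate 1, and its E17 libraries differed 1.52-fold; Timm8b showed no order of stages free of overlap. Neither passed the E12.5 to P0 test (changes -0.26 ± 0.16 and 0.07 ± 0.11, adjusted p = 0.142 and 0.557), although Timm8a1 was called lower without either E17 library (adjusted p = 0.00731 and 0.00755). Timm8b was called higher under median-of-ratios scaling (0.35, adjusted p = 0.0379) and after length and GC correction (0.15, adjusted p = 0.0479). Under quantile normalization the change of Timm8a1 was 0.03. The log2 ratio of Timm8a1 to Timm8b was -3.38 at E12.5, -4.22 at E15.5 and -3.71 at P0, and it differed between stages (exact permutation p = 0.00317, adjusted p = 0.00317). Of 10 pairs listed, the other 7 lacked at least 1 member in the table.

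**Figure D3:**
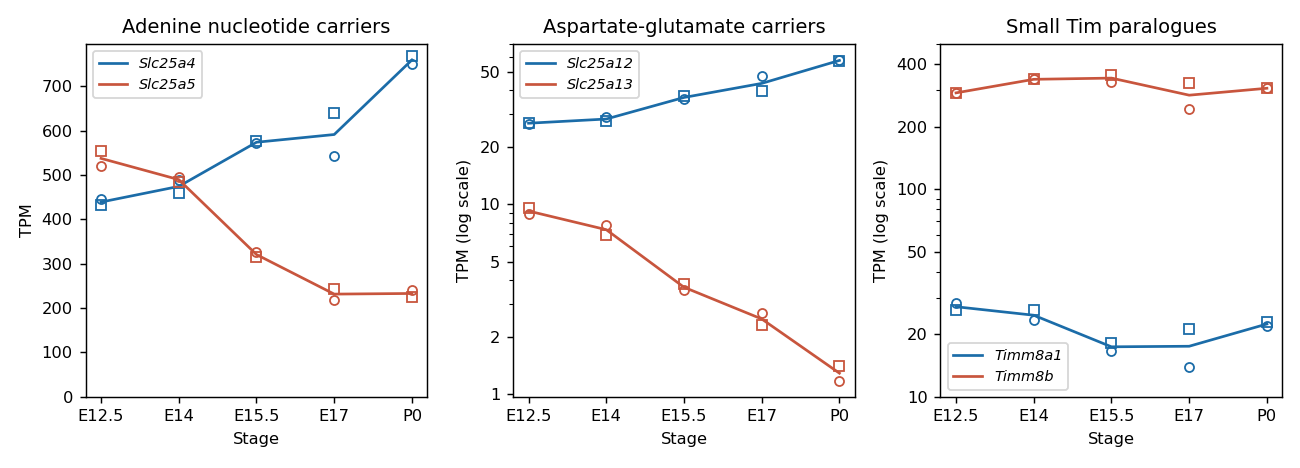
TPM of the 3 testable paralogue pairs by stage; circles are replicate 1, squares replicate 2, lines join stage means, and the middle and right panels have a log axis. Slc25a4 and Slc25a5 cross around E14, Slc25a12 and Slc25a13 diverge at each later stage, and Timm8a1 stays at or below 28.3 TPM while Timm8b stays at or above 243 TPM.

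Slc25a22 and Slc25a23 showed the other large rises. Slc25a22 (chr7:141429744-141437892, minus strand) encodes a mitochondrial glutamate carrier and was at 56.3 and 57.3 TPM at E12.5, 67.1 and 69.5 at E14, 78.8 and 78.2 at E15.5, 123 and 80.5 at E17 and 153 and 132 at P0. The E17 libraries differed 1.52-fold, and both P0 libraries were above all others. It rose 2.51-fold (1.31 ± 0.15, adjusted p = 8.37e-06). Slc25a23 (chr17:57043711-57059863, minus strand) encodes a calcium-dependent carrier that exchanges ATP-Mg for phosphate and was at 122 and 134 TPM at E12.5, 138 and 137 at E14, 169 and 157 at E15.5, 260.3 and 208 at E17 and 255 and 241 at P0. Here the E17 and P0 libraries overlapped one another and lay above all earlier ones. The rise was 1.94-fold (0.95 ± 0.10, adjusted p = 4.43e-06). It overlaps the antisense model Gm17168, over 3433 bases on the opposite strand, from which a stranded library can separate it if strand was used in counting.

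Smaller rises were called for the carrier of citrate and for 2 others. Slc25a1 (chr16:17925223-17928219, minus strand), the citrate carrier that supplies acetyl units for lipid synthesis, was at 84.0 and 79.6 TPM at E12.5, 86.6 and 77.1 at E14, 96.7 and 92.3 at E15.5, 107 and 102 at E17 and 119 and 104 at P0. Every library from E15.5 on exceeded the 4 earlier ones, and the change was 0.44 ± 0.09 (adjusted p = 0.000727). It was 0.18 after length and GC correction (adjusted p = 0.0256) and 0.72 under median-of-ratios scaling (adjusted p = 1.72e-05). Slc25a27 (chr17:43641891-43667214, minus strand), an uncoupling-protein relative also named UCP4, was at 36.6 and 33.8 TPM at E12.5, 35.1 and 43.6 at E14, 46.4 and 46.0 at E15.5, 76.3 and 50.6 at E17 and 57.5 and 48.4 at P0. Its highest value was E17 replicate 1, 1.51 times replicate 2, and both P0 libraries exceeded those of E12.5. The change of 0.57 ± 0.17 (adjusted p = 0.0087) lost its call without E12.5 replicate 2 (adjusted p = 0.0561) or P0 replicate 1 (0.0961). Slc25a46, an outer-membrane member involved in mitochondrial shape, ranged from 67.4 to 83.1 TPM and rose by 0.25 ± 0.08 (adjusted p = 0.0135), a call lost without E12.5 replicate 2 (0.0849) or P0 replicate 2 (0.0517). Its change was 0.52 under median-of-ratios scaling.

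Falls among the remaining carriers concerned dicarboxylates, acylcarnitines and phosphate. Slc25a10 (chr11:120491840-120499187, plus strand), which exchanges malate or succinate for phosphate, was at 38.3 and 40.7 TPM at E12.5, 35.3 and 33.5 at E14, 18.8 and 18.9 at E15.5, 19.2 and 14.8 at E17 and 15.6 and 12.1 at P0. The 4 libraries of E12.5 and E14 did not overlap the 6 later ones, and E12.5 was 2.85 times P0 (-1.46 ± 0.14, adjusted p = 1.32e-06). Slc25a20 (chr9:108662088-108684641, plus strand), which admits acylcarnitines for fatty acid oxidation, was at 40.6 and 42.6 TPM at E12.5, 40.5 and 39.5 at E14, 34.0 and 35.0 at E15.5, 28.9 and 28.6 at E17 and 26.5 and 24.1 at P0. Its libraries fell from E14 on without overlap, and the change was -0.70 ± 0.09 (adjusted p = 1.6e-05), against -0.42 under quantile normalization and -0.43 under median-of-ratios scaling. Slc25a3 (chr10:91116574-91124059, minus strand), the phosphate carrier that supplies ATP synthase, was at 292 and 305 TPM at E12.5, 265 and 257 at E14, 198 and 196 at E15.5, 189 and 186 at E17 and 221 and 206 at P0. It was lowest at E17 and higher again at P0, where both libraries still lay below those of E12.5 and E14 (-0.48 ± 0.07, adjusted p = 5.53e-05). The change was -0.21 under median-of-ratios scaling (adjusted p = 0.0353).

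The last 3 carriers did not pass the test. Slc25a11, the oxoglutarate carrier of the malate-aspartate shuttle, ranged from 80.7 to 99.97 TPM with a change of -0.04 ± 0.09 (adjusted p = 0.704). Slc25a17, a peroxisomal carrier of cofactors, ranged from 75.2 to 95.9 TPM with a change of 0.03 ± 0.10 (adjusted p = 0.796). Slc25a51, the carrier of NAD, ranged from 159 to 231 TPM with a change of 0.13 ± 0.09 (adjusted p = 0.179), with its highest value in E17 replicate 1. A missed threshold does not show that these genes stayed level. Under median-of-ratios scaling all 3 were called higher: Slc25a11 with a turned sign (0.23, adjusted p = 0.0326), Slc25a17 (0.30, adjusted p = 0.0425) and Slc25a51 (0.41, adjusted p = 0.00041). After length and GC correction Slc25a17 (0.19, adjusted p = 0.0308) and Slc25a51 (0.24, adjusted p = 0.00771) were called higher. Without E12.5 replicate 1 the change of Slc25a17 was -0.02.

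**Figure D4:**
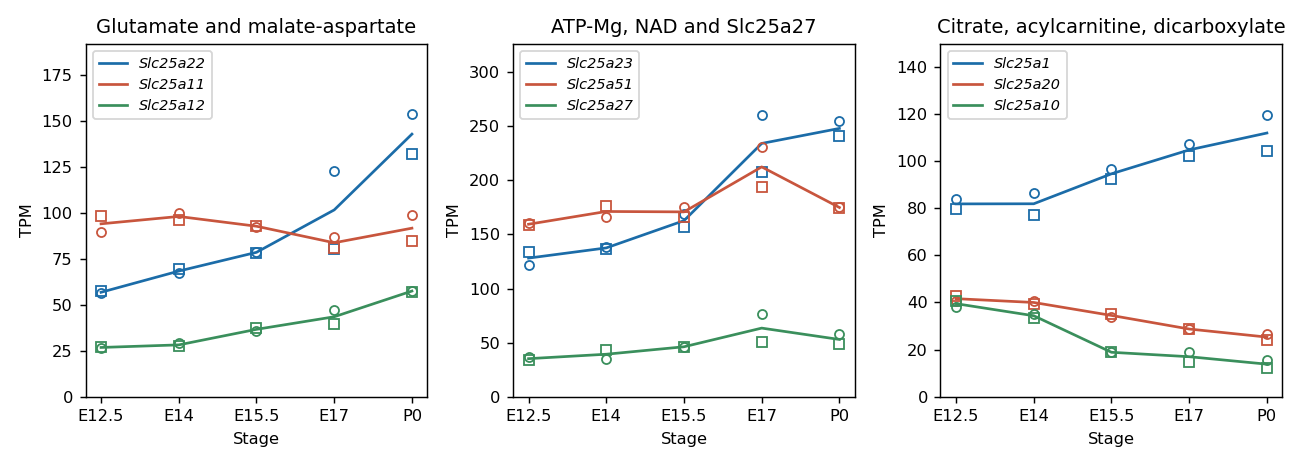
TPM of 9 carrier genes by stage; circles are replicate 1, squares replicate 2 and lines join stage means. Slc25a22 and Slc25a23 reach their highest stage means at P0, Slc25a51 peaks in mean at E17, and Slc25a20 and Slc25a10 fall to between 12.1 and 26.5 TPM at P0.

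The time of change differed from gene to gene. Over all 5 stages, the F test of limma called 23 of the 30 genes (11 import, 12 carriers), beside 82.9% of all genes. The largest single step was E14 to E15.5 for 14 genes (46.7%, beside 46.2% of all genes). Stage means were higher at every step in 7 genes (23.3%, all genes 11.5%) and lower at every step in 4 (13.3%, all genes 21.9%).

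From E12.5 to E14, limma called 0 of 30 genes, with 2 at an unadjusted p below 0.05, both carriers; 8.73% of all genes were called (3.95% higher, 4.78% lower). From E14 to E15.5 it called 15, 5 higher and 10 lower, beside 51.7% of all genes (18.4% higher, 33.3% lower). The rises were in Tomm20 (0.41 ± 0.08, adjusted p = 0.000966), Slc25a12 (0.37 ± 0.10), Slc25a4 (0.28 ± 0.09), Tomm70a (0.27 ± 0.09) and Timm10 (0.26 ± 0.09). The strongest falls were in Slc25a13 (-0.84 ± 0.12, adjusted p = 0.000112), Slc25a10 (-0.83 ± 0.14, adjusted p = 0.000386), Slc25a5 (-0.61 ± 0.08, adjusted p = 7.18e-05) and Slc25a3 (-0.40 ± 0.07, adjusted p = 0.000549). The other 6 were Timm8a1, Timm44, Timm50, Timm23, Tomm5 and Tomm40, between -0.48 and -0.25. At this step 7 genes were called when either E14 library or E15.5 replicate 1 was left out, and 6 when E15.5 replicate 2 was. Tomm20, Slc25a10, Slc25a5, Slc25a3 and Slc25a13 kept the call under every alternative in which they were tested. The other 10 lost it without at least 1 library of these stages, with adjusted p over all alternatives of up to 0.0749 for Slc25a12, 0.0767 for Timm44, 0.11 for Tomm70a, 0.149 for Slc25a4, 0.168 for Timm10, 0.147 for Timm50, 0.177 for Timm8a1, 0.191 for Timm23, 0.339 for Tomm40 and 0.361 for Tomm5. Calls were also lost under median-of-ratios scaling (Timm23, Timm50, Timm8a1, Tomm40 and Tomm5), under quantile normalization (Timm8a1, Tomm40 and Tomm5), after length and GC correction (Timm23 and Tomm5), without a variance trend (Tomm40) and without either E12.5 library (Tomm40 and Tomm5). Of the members' calls, 33.3% were rises, with 53.3% under quantile normalization, 64.3% under median-of-ratios scaling and 52.9% after length and GC correction. Over all genes these shares were 35.6%, 49%, 50.2% and 36.4% in the same order. The erythroid, meningeal and choroid plexus genes in the table fell to near 0 at the same step, and the part of these tissues in it was not tested.

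From E15.5 to E17, 4 carriers and 0 import genes were called by limma, beside 25% of all genes; 4 import genes had an unadjusted p below 0.05. Import genes gave 3 rises after length and GC correction and 1 under quantile normalization. Slc25a23 rose by 0.51 ± 0.10 (adjusted p = 0.00504) and Slc25a51 by 0.31 ± 0.09 (adjusted p = 0.0253), while Slc25a5 changed by -0.47 ± 0.08 (adjusted p = 0.00221) and Slc25a13 by -0.42 ± 0.12 (adjusted p = 0.0246). The difference between the classes was not tested. Single libraries moved this count: leaving out E17 replicate 2 gave 14 calls, E15.5 replicate 1 gave 2 and E15.5 replicate 2 gave 1. Slc25a23 lost its call without E15.5 replicate 2, Slc25a13 without either E15.5 library and Slc25a51 without either E15.5 library or E17 replicate 1 (adjusted p over all alternatives up to 0.0938, 0.171 and 0.182). After length and GC correction 6 genes rose and 2 fell, so that rises made up 75% of calls in place of 50%. Over all genes these shares were 60.3% and 57.5%.

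From E17 to P0, 10 genes rose and 2 fell, beside 41.7% of all genes called (12.9% higher, 28.8% lower). Import genes gave 6 of the rises and 0 falls, against 10 rises under median-of-ratios scaling and 3 after length and GC correction, which lost Timm10, Timm13 and Timm23. Tomm70a had the largest rise among them (0.57 ± 0.09, adjusted p = 0.000502), followed by Timm10 (0.43 ± 0.09), Timm9 (0.38 ± 0.07), Timm13 (0.28 ± 0.09), Tomm20 (0.27 ± 0.08) and Timm23 (0.26 ± 0.08, adjusted p = 0.0233). Among carriers, Slc25a22 rose by 0.51 ± 0.15, Slc25a12 by 0.40 ± 0.10, Slc25a4 by 0.37 ± 0.09 and Slc25a3 by 0.19 ± 0.07 (adjusted p = 0.0499). The falls were in Slc25a13 (-0.61 ± 0.12) and Slc25a51 (-0.27 ± 0.09). Tomm70a was the only one of the 12 called under every alternative, and without P0 replicate 1 there were 7 calls. Those lost without P0 replicate 1 were Slc25a22, Slc25a3, Slc25a51, Timm13 and Timm23, with adjusted p over all alternatives of up to 0.157, 0.423, 0.177, 0.174 and 0.28. Slc25a51 was also lost without P0 replicate 2 or E17 replicate 1, and Tomm20 without P0 replicate 2 (up to 0.217). The rise of Slc25a3 was called in 6 of 20 alternatives. Calls were also lost under quantile normalization (Tomm20, Timm13 and Slc25a13) and under median-of-ratios scaling (Slc25a51). Rises were 83.3% of the members' calls, 93.3% under median-of-ratios scaling and 60% after length and GC correction. Over all genes these shares were 30.9%, 48.4% and 29.7%.

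**Figure D5:**
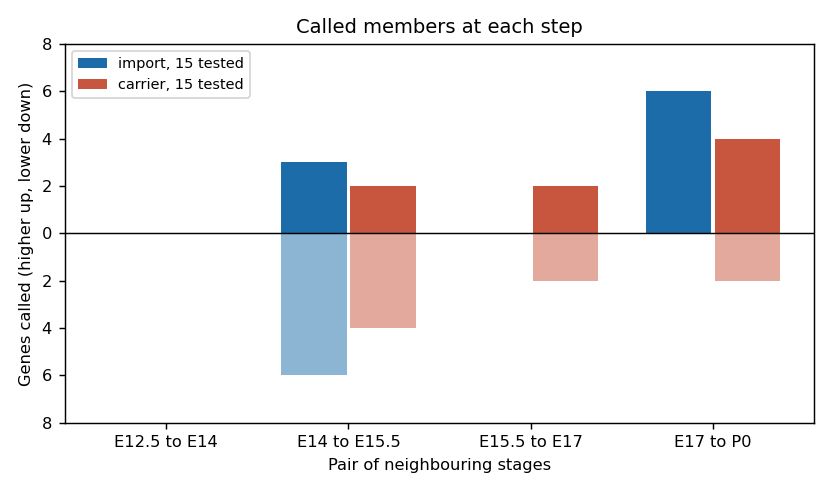
Number of tested genes called at each step between neighbouring stages, with rises above 0 in full colour and falls below 0 in lighter colour; blue bars are import genes (15 tested) and red bars carriers (15 tested). Import genes have 3 rises and 6 falls from E14 to E15.5 and 6 rises with 0 falls from E17 to P0.

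A fall followed by a rise was seen in 4 members. Timm23 and Slc25a3 were called lower from E14 to E15.5 and higher from E17 to P0, a sequence found in 1.87% of all genes. Tomm40 and Tomm5 were called lower at the first of these steps and higher from E15.5 to P0 (changes 0.33 ± 0.09 and 0.29 ± 0.10, adjusted p = 0.0109 and 0.0272), a sequence found in 2.35% of all genes. That later comparison was added after the data were seen. Over it 11 members rose and 4 fell, beside 50.2% of all genes called (19.5% higher, 30.7% lower). Tomm40 was at 73.3 and 75.6 TPM at E12.5, 70.5 and 60.4 at E14, 55.4 and 54.1 at E15.5, 64.1 and 58.1 at E17 and 71.5 and 67.0 at P0. Tomm5 was at 78.0 and 73.1 TPM at E12.5, 76.1 and 64.3 at E14, 56.4 and 60.0 at E15.5, 59.0 and 65.0 at E17 and 71.9 and 70.3 at P0. In both genes the E15.5 libraries lay below those of E12.5, E14 and P0. Each fall lost its call under both other scalings and without either E12.5 library, E14 replicate 1 or either E15.5 library, and that of Tomm5 also after length and GC correction. The adjusted p reached 0.339 for Tomm40 and 0.361 for Tomm5. The later rises were lost without either E15.5 library or P0 replicate 1, that of Tomm5 also without P0 replicate 2 and that of Tomm40 also after length and GC correction. Over all alternatives the change of Tomm40 was as low as 0.14, and the adjusted p reached 0.122 for Tomm40 and 0.171 for Tomm5. The rises of Timm23 and Slc25a3 from E17 to P0 were lost without P0 replicate 1, as given above.

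Summed over their members, import transcripts went from 1892 ± 21.8 TPM (SD, n = 2) at E12.5 to 2018 ± 33.3 at E15.5 and 2385 ± 4.73 at P0, and carrier transcripts went from 2102 ± 39.0 to 1993 ± 21.7 and 2295 ± 64.7. Single genes made up much of these sums. Tomm20 gained 347 of the 493 TPM added by import genes between E12.5 and P0, and the gain of Slc25a4 (321 TPM) exceeded the net gain of all carriers (193 TPM). At P0, the stage mean was the highest of the 5 in 5 import genes and 6 carriers, and at E12.5 in 7 import genes and 5 carriers. The highest stage was not counted over all genes, so these numbers have no background beside them. The classes were compared by these counts and medians alone, and no difference between them was tested.

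Genes that work with the import machinery were taken from a list of 23, of which 18 were in the table and tested. From E12.5 to P0, 5 rose and 9 fell, with a median change of -0.22. Over all genes 78.2% were called (27.1% higher, 51% lower) and the median was -0.27, so the share called was near the background. The highest was Agk (0.88, adjusted p = 3.99e-06), a lipid kinase that is also a TIM22 subunit, and the lowest Hspd1 (-1.06, adjusted p = 8.18e-07), the matrix chaperonin that folds imported proteins. Hspa9, the motor chaperone bound by Timm44, was called lower (-0.77, adjusted p = 6.8e-06). Chchd4, which oxidises small Tim precursors between the membranes, was called higher (0.58, adjusted p = 1.23e-05). The other called rises were Romo1 (0.48), Pam16 (0.40) and Grpel2 (0.33). The other called falls ran from -0.85 (Pitrm1) to -0.21 (Samm50), with Gfer at -0.82. Of 19 other mitochondrial transporters listed, 12 were tested and 8 rose, with a median of 0.32. Sfxn3, a sideroflexin, rose most (1.85, adjusted p = 1.19e-08), and Mcu, the calcium uniporter, rose by 0.85 (adjusted p = 4.92e-06). Hspa9, Chchd4 and Mcu were named after their values were seen, for their links to the members. The other called import partners were also named after their values were seen.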

How the data were processed

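Polyadenylated RNA of mouse neocortex was sequenced from stranded libraries (TruSeq Stranded mRNA) after cryogenic lysis in detergent and clearing of the lysate, per the labels' protocols. STAR, Subread and GRCm38.p5 are named in the submitters' processing notes, without versions or roles. The deposited values are TPM per library, per the file headers, so each value is relative to the rest of its library. The rule that chose the 6147 rows was not given in the sources used here, and 0 value columns lacked a sample.

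Here, 99 genes with a mean under 1 TPM were left out, and log2(TPM + 1) of 6048 genes was fitted with limma 3.58.1 in R 4.3.3. The model had 1 mean per stage over all 10 libraries (5 residual degrees of freedom) and moderation with a variance trend. The median SE of a stage difference was 0.107. P values were adjusted by Benjamini-Hochberg. Ratios of paralogues were tested by an exact permutation of F, with p the share of splits whose F was at or above the observed one. Scripts were tested on simulated data. Gene positions, lengths, GC content and overlaps came from GENCODE M21 (GRCm38), matched by identifier for all 31 members, and promoters from RefSeq on GRCm38.p6. Tables were handled in Python 3.11.15 (pandas 2.3.3, numpy 2.4.6) and drawn with matplotlib 3.10.9.

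The members and lists were chosen with earlier results of these data known. Per-library values were given for the 10 largest rises and the falls among called genes, members of paralogue pairs and the 3 genes with the highest mean; Tomm40 and Tomm5 were added after their values were seen. Other settings tried were a pseudocount of 0.1 or 10 TPM, no filter, a minimum mean of 5 TPM, quantile and median-of-ratios scaling, no variance trend, only the libraries compared, a replicate block, correction for transcript length and GC content, and leaving out each library. The lowest change in the list of other transporters is not reported here.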

Additional observations from a re-analysis of the deposited data

How the results depend on the processing

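With 2 libraries per stage, precision rests on the spread shared by all stages, and TPM carry no read depth. Of 217 alternative values of the counts and paralogue ratios, 195 stayed within the limits set for them. For counts the limit was a 1.5-fold difference. Ratios had to keep sign and side of 0.05 under another pseudocount. With an E12.5 or P0 library left out, they had to stay within the pooled SD. Of 599 alternative values for single genes, 553 kept direction and side of the threshold. Import genes called lower from E12.5 to P0 numbered 3, against 1 under quantile normalization, 1 under median-of-ratios scaling and 2 to 5 with a library left out; without either E17 library they were 5. With only the libraries compared in the fit, calls were 8 in place of 0 for E12.5 to E14, 23 in place of 15 for E14 to E15.5, 0 in place of 4 for E15.5 to E17 and 4 in place of 12 for E17 to P0. After length and GC correction they were 2 for E12.5 to E14 and 8 for E15.5 to E17. Leaving out 1 library gave 0 to 4, 6 to 22, 1 to 14 and 7 to 18 for the 4 steps in order. The log2 ratio of Slc25a12 to Slc25a13, P0 minus E12.5, was 3.23 and ran from 3.16 to 3.31 with 1 library left out. It depends more on the pseudocount, since 10 TPM took the change of Slc25a13 from -2.16 to -0.77. Directions turned under quantile normalization for Slc25a11 (0.060), Timm8a1 (0.026), Tomm34 (0.20), Tomm40 (0.036) and Tomm5 (0.041), and under median-of-ratios scaling for Slc25a11 (0.23), Timm23 (0.018), Timm8a1 (0.0011), Tomm22 (0.13), Tomm34 (0.18), Tomm40 (0.17) and Tomm5 (0.19). They also turned after length and GC correction for Tomm22 (0.0060) and Tomm5 (0.043). With 1 library left out, changes ran from -0.15 to 0.071 for Slc25a11, -0.020 to 0.082 for Slc25a17 and -0.22 to 0.052 for Tomm34; the turns came without E12.5 replicate 2 or P0 replicate 2 for Slc25a11 (0.029 and 0.071), E12.5 replicate 1 for Slc25a17 and P0 replicate 2 for Tomm34. Of these only Timm23 was called in the main analysis, and the cause of the turns was not tested. The replicate numbers share no stated source, and deviations of same-numbered libraries correlated between -0.375 and 0.107 over 10 pairs of stages, above 0.1 in 1. With the replicate number as a block, 16 members were called from E14 to E15.5 in place of 15 and 11 from E17 to P0 in place of 12, and the block moved no count by over 1.5 times.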
